A study of Homo sapiens with 2 samples.

Results

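Glycolysis, lactate and pyruvate genes were examined in NCI-H838, a human cell line established from a lung adenocarcinoma. The set was chosen by gene symbol, as glycolytic enzymes and their isoenzymes, glucose and lactate transporters, the PFKFB regulators, and genes of the pyruvate dehydrogenase step. All 32 were found among the 27685 genes listed. The choice rule uses no measured value, but the genes were chosen with earlier results of these data known. One culture was transiently transfected with pCDH-LINC00472, a plasmid holding the full length of LINC00472, a long intergenic noncoding RNA. The other received the empty pCDH plasmid. Both went through lipid-mediated transfection and were harvested for total RNA 48 hours later. With 1 library per group there is no replicate to set a difference against, so the text gives no p-values, and its intervals describe counting error alone.

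Glycolysis splits glucose into pyruvate in the cytosol. An early stage spends ATP at hexokinase and phosphofructokinase, and a later stage, from glyceraldehyde-3-phosphate dehydrogenase to pyruvate kinase, gives ATP and NADH. Pyruvate is then reduced to lactate by lactate dehydrogenase and exported by monocarboxylate transporters, or it enters mitochondria and becomes acetyl-CoA through the pyruvate dehydrogenase complex, which PDK kinases switch off. Many steps have several isoenzymes from separate genes, and tumour cells, including those of lung adenocarcinoma, are known for high glycolytic flux. Several of these genes, such as LDHA, PGK1 and SLC2A1, are textbook targets of the hypoxia factor HIF.

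The LINC00472 library held 21093055 gene counts and the control library 54823706, so it was 2.60 times deeper. LINC00472 itself had 5655 counts against 2563 (log2 ratio 2.23 after scaling), so reads of it were present in the control too. Long noncoding RNAs took 7.78% of all counts in the LINC00472 library against 2.56% in the control. Keratins of simple epithelia were present, with KRT8 at 26.5 FPKM with LINC00472 and 94.2 without, KRT18 at 23.9 and 157, and KRT7 at 12.02 and 37.1, and all of them were lower. The other epithelial markers were low, with CDH1 at 2.098 and 1.34 FPKM, EPCAM at 1.18 and 1.19, and KRT19 at 0 and 44 counts. Of the lung lineage genes, NKX2-1 and SFTPB had 0 counts in both libraries (a limit of 3 counts each), and NAPSA was higher, at 2.40 against 0.742 FPKM. Of 11 markers of fibroblast, endothelial and leukocyte cells, 9 were under 1 FPKM in both libraries, and the summed level was 12.1 FPKM against 16.5, most of it from the macrophage marker CD68. Of these markers 5 were at 0 counts in the LINC00472 library, PTPRC and CD3E among them, and 1 (CD3E) in the control. The part of these differences in the results below was not tested.

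FPKM is the deposited level, in fragments per kilobase of transcript scaled to sequencing depth, and is used wherever genes are compared with each other. Ratios between the libraries are ratios of counts scaled with TMM factors. A gene is called higher or lower where its mean level was at least 1 CPM (counts relative to library size), the ratio was at least 2-fold, and the 95% counting interval excluded equality. Of the 32 genes, all at that minimum, 1 was higher and 14 were lower after LINC00472 transfection. Of all 14012 genes at the minimum, 16.3% were higher and 23.8% lower, and of the 12380 protein-coding ones 11.4% and 26.2%. The median log2 ratio was -0.89 over the 32 genes, -0.19 over all genes and -0.31 over protein-coding genes. The median of all genes itself depended on the scaling. It was 0.11 when scaled by total counts and 0.21 by upper quartiles, and each ratio is to be read against it. Total counts gave 2 of the 32 genes higher and 12 lower, against 22.5% and 16.3% of all genes, and upper quartile factors gave 3 and 10, against 25.1% and 14.2%. Totals without the 100 most abundant genes gave 2 and 11, against 24.5% and 15%, and FPKM gave 2 and 13, against 15.5% and 17.3%. For 1 higher and 14 lower genes in the set, the share of all genes was 15.5% and 21.7% after adjustment for transcript length, 16.3% and 23.8% with DESeq2 factors, and 16% and 23.5% with a prior count of 5. It was 20.5% and 22% at a minimum of 0.1 CPM and 11.6% and 26.2% at 5 CPM, also with 1 and 14. In bulk RNA, fewer cells with a transcript and less of it per cell cannot be told apart.

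**Figure D1:**
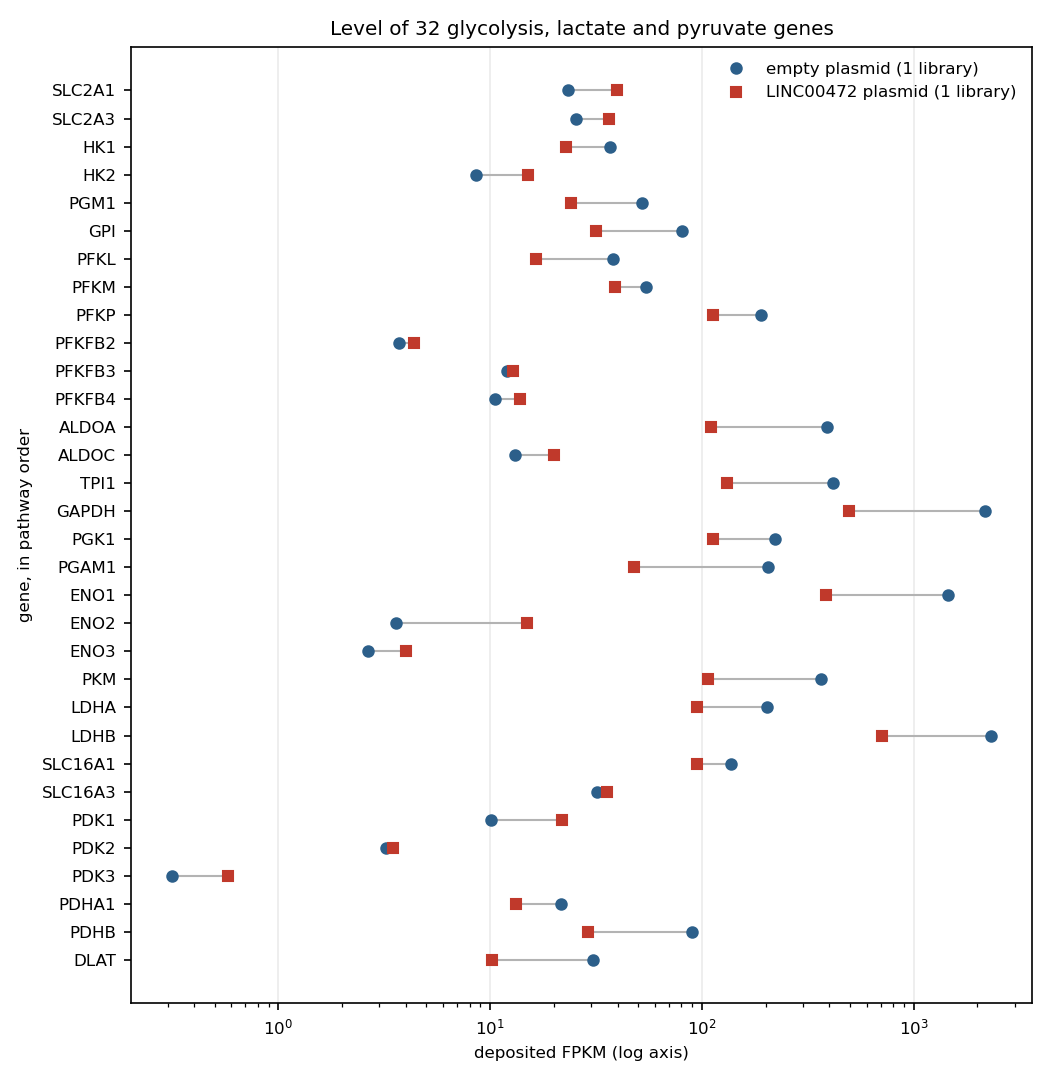
Deposited FPKM (log axis) of the 32 genes in pathway order, with 1 library per symbol. From ALDOA to PKM the major enzymes sit to the left in the LINC00472 library, for example GAPDH at 495 against 2168 FPKM, whereas ALDOC, ENO2 and ENO3 sit to the right, ENO2 at 15.01 against 3.61.

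The lower genes were mainly single or major enzymes of the trunk of the pathway. The minor forms PFKL (log2 ratio -1.39) and LDHA (-1.27) were lower as well. The major forms HK1 (-0.88) and PFKP (-0.98) did not meet the rule. The other minor isoenzymes, the transporters and the regulators lay on either side of equality. Of 18 enzyme genes from hexokinase to lactate dehydrogenase, 11 were lower, 1 was higher and 6 were neither, against 23.8% lower and 16.3% higher of all genes. None of the 4 transporter genes and none of the 6 PFKFB and PDK genes met the rule in either direction. At those shares few calls would fall in groups of 4 and 6, so their lack says little. Lower calls were also more frequent among abundant genes, and these groups were not matched for abundance. Together the 32 genes took 0.644% of gene counts in the LINC00472 library (exact Clopper-Pearson 95% interval 0.641 to 0.648) and 1.64% in the control (1.63 to 1.64).

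**Figure D2:**
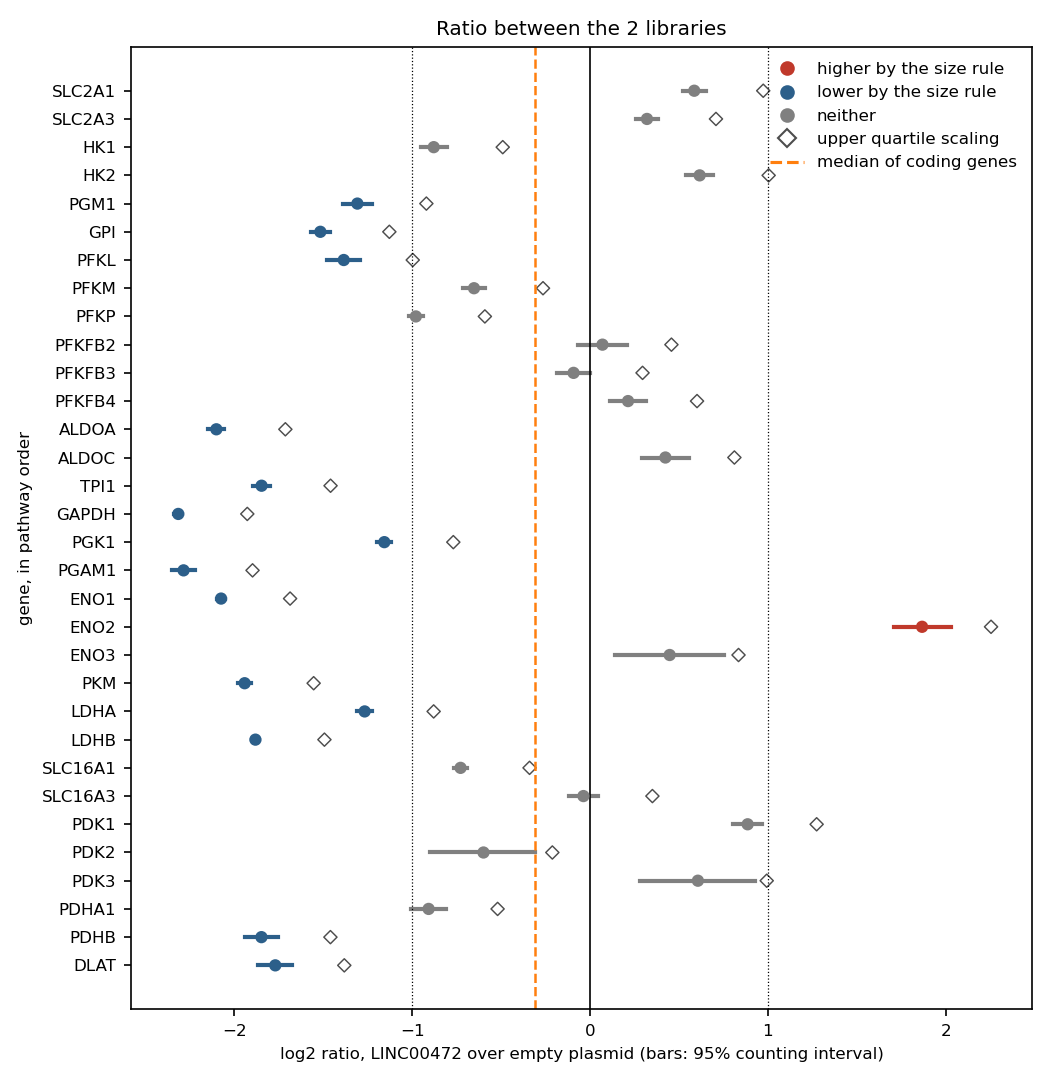
Log2 ratio of LINC00472 over empty plasmid for the 32 genes, with 95% counting intervals as bars, and the same ratio with upper quartile scaling as open diamonds. ENO2 (1.87) lies farthest to the right and GAPDH (-2.32) farthest to the left, and the diamonds are shifted to the right for every gene.

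The 2 glucose transporter genes of the set did not meet the rule. SLC2A1, the GLUT1 transporter of most tumour cells, had 3436 counts with LINC00472 and 4870 without, or 39.8 against 23.3 FPKM, a log2 ratio of 0.59 (interval 0.52 to 0.65). SLC2A3, the high-affinity GLUT3 transporter, stood at 36.3 against 25.5 FPKM (log2 ratio 0.32, interval 0.26 to 0.38). Both intervals lie above equality, but neither ratio reached 2-fold. Their summed level was 76.1 FPKM against 48.8.

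The hexokinases, which trap glucose in the cell as glucose-6-phosphate, went in opposite directions. HK1, the general form bound to mitochondria, had 22.8 against 36.8 FPKM (log2 ratio -0.88, interval -0.95 to -0.81). HK2, the inducible form common in tumours, had 15.02 against 8.61 FPKM (0.62, interval 0.54 to 0.69), and it was called higher with upper quartile factors (1.005). HK1 remained the more abundant of the 2 in both libraries, but HK2 made up 39.7% of hexokinase FPKM with LINC00472 and 19.0% without.

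The 2 enzymes on either side of glucose-6-phosphate that have no isoenzyme in the set were lower. GPI, which isomerises it to fructose-6-phosphate, had 3159 against 19239 counts, or 31.7 against 80.3 FPKM, and was 2.86-fold lower (log2 ratio -1.52, interval -1.57 to -1.46). PGM1, which links it to glycogen, had 24.04 against 52.4 FPKM and was 2.48-fold lower (-1.31, interval -1.39 to -1.23), but did not meet the rule with upper quartile factors (-0.92).

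The phosphofructokinases catalyse the committed step. PFKP, the platelet form, was the most abundant, at 113 against 191 FPKM, and its log2 ratio of -0.98 (interval -1.02 to -0.94) fell just short of the rule. PFKM, the muscle form, had 39.0 against 54.2 FPKM (-0.65, interval -0.71 to -0.59). PFKL, the liver form, had 16.5 against 37.9 FPKM and was 2.61-fold lower (-1.39, interval -1.48 to -1.29), with -0.997 under upper quartile factors, short of the rule. The rank order of the 3 forms was the same in both libraries, and PFKP held 67.2% and 67.5% of their FPKM.

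The PFKFB enzymes set the level of the allosteric activator of phosphofructokinase, and their levels were near equality. PFKFB2 had 4.39 against 3.70 FPKM (log2 ratio 0.07, interval -0.07 to 0.21), and PFKFB4 13.9 against 10.6 (0.21, interval 0.11 to 0.32). PFKFB3, the form with the strongest kinase activity, had 12.8 against 12.02 FPKM, with a log2 ratio of -0.09 that became 0.20 on scaling by total counts and 0.30 by upper quartiles. PFKFB1, a form outside the set, was higher from few reads, 44 against 19 counts (4.79-fold, log2 interval 1.49 to 3.16).

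Aldolase and triose phosphate isomerase make and interconvert the 3-carbon sugars, and the main aldolase and TPI1 were lower. ALDOA, the main aldolase, had 4274 against 39044 counts, or 110 against 389 FPKM, and was 4.29-fold lower (log2 ratio -2.10, interval -2.15 to -2.06). ALDOC, the brain form, had 19.97 against 13.1 FPKM (0.42, interval 0.29 to 0.56) and did not meet the rule. TPI1 had 131 against 416 FPKM and was 3.60-fold lower (-1.85, interval -1.89 to -1.80). Its pseudogene TPI1P2 was also listed, with 70 against 131 counts, next to 4174 against 31968 for TPI1. TPI1, GAPDH, ENO1, LDHA and PGK1 have near-identical processed pseudogenes, and how the counting divided such reads is not known. ALDOC made up 15.3% of aldolase FPKM after LINC00472 transfection and 3.25% in the control.

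The ATP-yielding stage held the lowest ratios of the set. GAPDH, which makes NADH, had 16321 against 172950 counts, or 495 against 2168 FPKM, and was 4.98-fold lower (log2 ratio -2.32, interval -2.34 to -2.29). PGAM1, the phosphoglycerate mutase, had 47.6 against 204 FPKM and was 4.88-fold lower (-2.29, interval -2.35 to -2.22). PGK1, the kinase between them, was lower by less, at 113 against 222 FPKM (2.23-fold, log2 ratio -1.16, interval -1.20 to -1.12). It fell short of the rule in FPKM (-0.97) and on scaling by total counts (-0.87) or upper quartiles (-0.77). The 3 genes between triose phosphate and enolase therefore had unequal ratios. PGAM4, a retrocopy close in sequence to PGAM1, was lower as well (28 against 358 counts, 5.95-fold), and reads of the pair may be divided between them.

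The enolases showed the widest divergence within a family. ENO1, the ubiquitous form, had 20213 against 181271 counts, or 387 against 1454 FPKM, and was 4.21-fold lower (log2 ratio -2.08, interval -2.10 to -2.05). ENO2, the form known as neuron-specific enolase, had 855 against 498 counts, or 15.01 against 3.61 FPKM, and was 3.65-fold higher (1.87, interval 1.71 to 2.03), the only gene of the set called higher. ENO3, the muscle form, had 145 against 226 counts, or 4.01 against 2.65 FPKM (0.45, interval 0.14 to 0.76). ENO1 still supplied 95.3% of enolase FPKM in the LINC00472 library, against 99.6% in the control, and the summed enolase level was 406 against 1460 FPKM.

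The promoters of this pair and of GAPDH are shown because ENO2 and GAPDH had the highest and lowest ratios of the set and ENO1 is the major isoenzyme beside ENO2. The core of the hypoxia response element, ACGTG or GCGTG on either strand, is in capitals. Each sequence comes from RefSeq (GRCh38.p14) and reads along the gene's strand. It spans 250 bases before to 50 after a start listed there for the gene. For GAPDH 4 transcripts are listed, and this start need not be that of its main transcript. The GAPDH capitals are a single palindrome in which the motif lies on both strands and overlaps itself. ENO2 is at chr12:6914330-6914629 (plus strand), ENO1 at chr1:8878637-8878936 (minus strand) and GAPDH at chr12:6535014-6535313 (plus strand).
ENO2: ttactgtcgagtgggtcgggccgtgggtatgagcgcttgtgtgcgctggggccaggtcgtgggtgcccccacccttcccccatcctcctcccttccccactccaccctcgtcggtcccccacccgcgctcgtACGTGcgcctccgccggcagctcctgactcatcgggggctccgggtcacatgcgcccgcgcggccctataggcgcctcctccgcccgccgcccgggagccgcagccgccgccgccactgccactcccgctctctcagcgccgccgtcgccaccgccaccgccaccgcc
ENO1: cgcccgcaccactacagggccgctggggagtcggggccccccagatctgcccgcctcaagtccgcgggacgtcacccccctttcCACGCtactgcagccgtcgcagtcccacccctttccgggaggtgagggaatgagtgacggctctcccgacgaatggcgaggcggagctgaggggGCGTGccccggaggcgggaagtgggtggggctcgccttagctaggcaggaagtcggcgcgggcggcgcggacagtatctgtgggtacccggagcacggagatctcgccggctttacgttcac
GAPDH: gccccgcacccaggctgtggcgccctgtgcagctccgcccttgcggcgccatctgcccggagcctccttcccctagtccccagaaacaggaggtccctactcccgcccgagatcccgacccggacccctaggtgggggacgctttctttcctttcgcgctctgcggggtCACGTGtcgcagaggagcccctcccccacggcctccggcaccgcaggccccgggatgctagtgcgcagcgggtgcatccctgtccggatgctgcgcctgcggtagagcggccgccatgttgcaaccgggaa

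The motif was thus present in both enolase promoters, whose genes lay on opposite sides of equality. RefSeq promoters were found for 29 of the 32 genes, 60 promoters in all, and 38 of them (63.3%) held the motif. Of all 35116 promoters of the same length 48.4% held it, and of 21655 promoters of protein-coding genes 54.96%. The share was 80% of 20 promoters of lower genes and 53.8% of 39 promoters of genes that were neither. By gene, 28 of 29 (96.6%) had a promoter with the motif, against 62.4% of protein-coding genes and 52.4% of all genes. Among genes with 1 promoter it was 15 of 16 (93.8%), against 56.05% of such protein-coding genes. The motif was found for 13 of 14 lower genes, the 1 higher gene and 14 of 14 others, and the gene without it was PGAM1, which had the second lowest ratio. A match describes the letters only, and genes with several promoters have more chances of one.

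Pyruvate kinase and lactate dehydrogenase, the last steps in the cytosol, were lower. PKM had 6838 against 55941 counts, or 106 against 365 FPKM, and was 3.84-fold lower (log2 ratio -1.94, interval -1.98 to -1.91). Counts per gene do not separate its splice forms PKM1 and PKM2. LDHB, which favours the conversion of lactate to pyruvate, was the most abundant gene of the set in both libraries, at 708 against 2319 FPKM (22826 against 179053 counts), and was 3.69-fold lower (-1.88, interval -1.90 to -1.86). LDHA, which favours lactate, had 94.996 against 204 FPKM and was 2.41-fold lower (-1.27, interval -1.31 to -1.22), with -0.98 under total counts and -0.88 under upper quartile factors, both short of the rule. LDHA made up 11.8% of lactate dehydrogenase FPKM with LINC00472 and 8.07% without.

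The lactate transporters did not meet the rule. SLC16A1, or MCT1, had 94.9 against 137 FPKM (log2 ratio -0.73, interval -0.76 to -0.69). SLC16A3, or MCT4, the exporter of highly glycolytic cells, had 35.6 against 32.001 FPKM, with a log2 ratio of -0.04 that became 0.25 on scaling by total counts and 0.35 by upper quartiles. Of their joint FPKM, SLC16A3 held 27.3% against 18.9%. BSG, the chaperone that carries both to the membrane, was 2.40-fold lower, at 38.6 against 81.4 FPKM, but not with total counts or upper quartile factors.

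At the entry to mitochondria, 2 of the 3 subunit genes of the pyruvate dehydrogenase complex in the set were lower and its kinases were not. PDHB, the beta subunit of the first enzyme, had 1048 against 8032 counts, or 29.1 against 90.0 FPKM, and was 3.60-fold lower (log2 ratio -1.85, interval -1.94 to -1.76). DLAT, the acetyltransferase core, had 10.2 against 30.6 FPKM and was 3.41-fold lower (-1.77, interval -1.87 to -1.68). PDHA1, the alpha subunit that the kinases phosphorylate, had 13.2 against 21.7 FPKM (-0.91, interval -1.01 to -0.81) and did not meet the rule. The 2 subunits of the first enzyme therefore had unequal ratios, with PDHB at 2.201 times the FPKM of PDHA1 with LINC00472 and 4.15 times without. Outside the set, PDHX (log2 ratio -0.43) and DLD (-0.67), further subunits of the complex, did not meet the rule.

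Among the kinases, PDK1 was the main form. It had 2201 against 2533 counts, or 21.9 against 10.1 FPKM, a log2 ratio of 0.89 (interval 0.80 to 0.97) that passed the rule on scaling by total counts (1.18) or upper quartiles (1.27). PDK3 was at a trace level, 0.580 against 0.314 FPKM from 139 against 194 counts (0.61, interval 0.28 to 0.93). PDK2 had 128 against 413 counts and a log2 ratio of -0.60 (interval -0.90 to -0.31), yet its FPKM was 3.47 against 3.22. In no other gene of the set did the unit matter as much. The log2 FPKM ratio minus the log2 ratio of count shares was 0.42 for PDK2, against a median of -0.10 over the 32 genes, and 4 transcripts are listed for it. The direction of PDK2 is therefore uncertain.

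Balances between genes of a family do not depend on the scaling between libraries, since both genes come from the same library. In 15 pairs, the ratio of counts in the LINC00472 library was divided by that in the control, with an exact conditional 95% interval for counting error. It was 15.4 for ENO2 over ENO1 (interval 13.8 to 17.2), 5.76 for ALDOC over ALDOA (5.23 to 6.34) and 5.75 for ENO3 over ENO1 (4.64 to 7.12). For HK2 over HK1 it was 2.82 (2.62 to 3.03), for PFKM over PFKL 1.66 (1.54 to 1.79), and for SLC16A3 over SLC16A1 1.61 (1.52 to 1.72). In the enolase, aldolase and hexokinase families the form that was less abundant in the control held a larger share with LINC00472. The same held, from control to LINC00472 FPKM, for LDHA (8.07% to 11.8%), SLC16A3 (18.9% to 27.3%) and SLC2A1 (47.7% to 52.3%). It did not hold for PFKL (13.4% to 9.77%), PDK2 (23.7% to 13.4%) or PDK3 (2.31% to 2.24%). PFKFB2 was nearly unchanged (14.07% to 14.16%). Picking forms by control FPKM, which also enters the comparison, favours a gain in the other library. Ratios also fell with abundance. In 10 equal bins of mean FPKM, protein-coding medians ran from 0.47 (bin 1, the scarcest) to -1.23 (bin 10). Whether the shares rose beyond that trend was not tested.

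In the other balances, a value under 1 means that the second gene gained relative to the first. LDHB over LDHA was at 0.653 (0.632 to 0.676), SLC2A3 over SLC2A1 at 0.832 (0.782 to 0.884) and PFKP over PFKL at 1.32 (1.24 to 1.42). Relative to PDHA1, PDHB was at 0.521 (0.474 to 0.573) and DLAT at 0.550 (0.5002 to 0.605). PDK2 over PDK1 was at 0.357 (0.288 to 0.440) in counts and 0.497 in FPKM. For the other 3 pairs the interval held 1, namely PFKFB3 over PFKFB2 (0.797 to 1.002), PFKFB4 over PFKFB2 (0.981 to 1.24) and PDK3 over PDK1 (0.653 to 1.04).

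**Figure D3:**
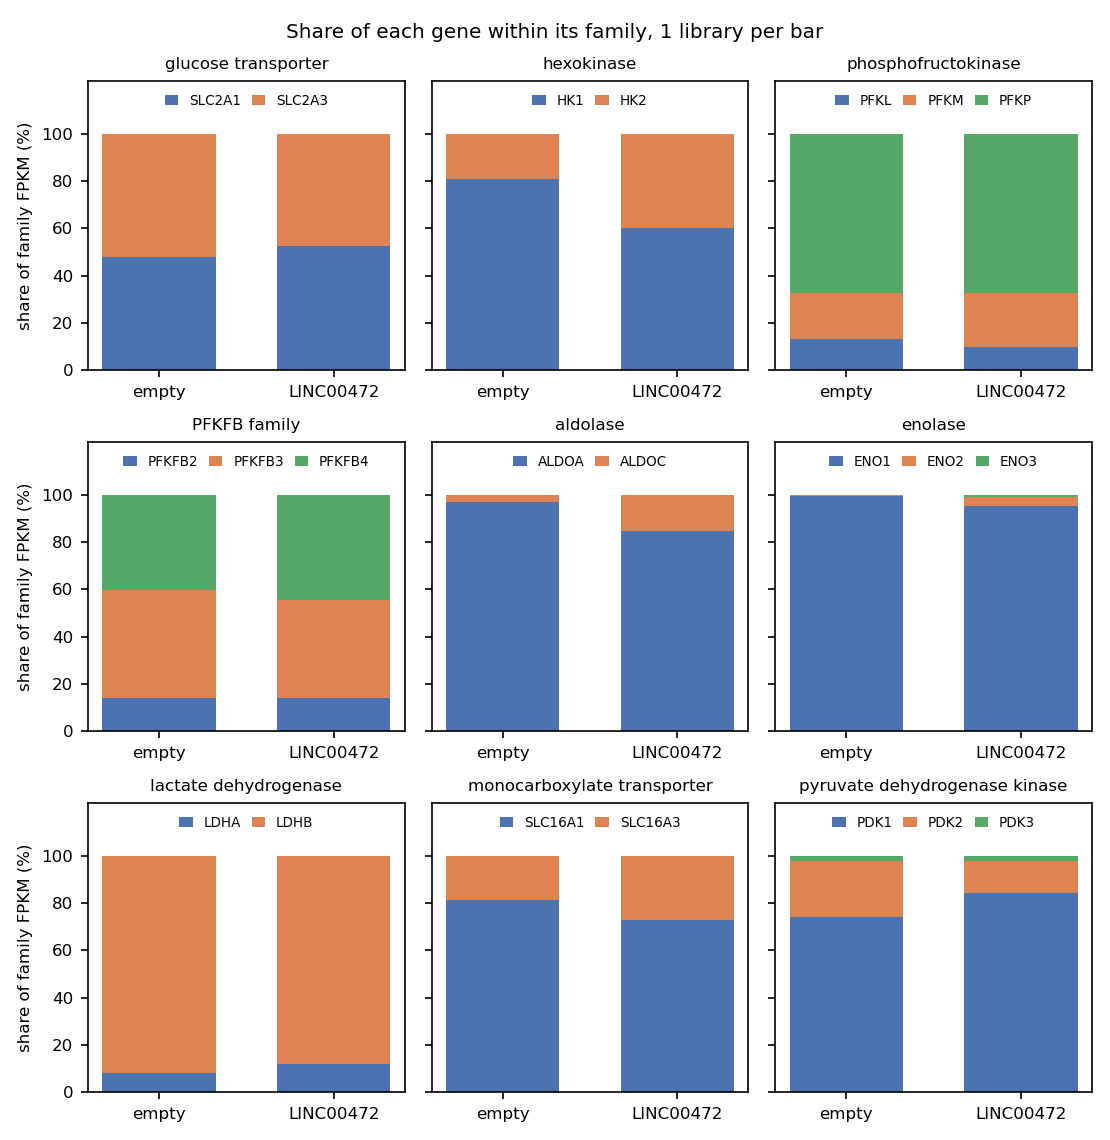
Share of each gene in the summed FPKM of its family, with 1 bar per library (empty plasmid left, LINC00472 right) and colours for genes. ALDOC takes 15.3% of aldolase FPKM in the LINC00472 library against 3.25% in the control, and HK2 39.7% of hexokinase FPKM against 19.0%.

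Abundance and transcript length moved with these ratios. Of the 11 genes with a mean of at least 100 FPKM over both libraries, 9 were lower, a share of 81.8%, with a median log2 ratio of -1.88. The 2 others were PFKP and SLC16A1. Of all 438 protein-coding genes at that level, 72.8% were lower, with a median of -1.70. Of the 21 genes of the set under 100 FPKM, 5 were lower (23.8%, median -0.04), and of 11942 protein-coding genes under it 24.5% (median -0.28). Below 100 FPKM the share of lower genes in the set thus lay near that of protein-coding genes. Over the 32 genes Spearman's rho of the log2 ratio with mean FPKM was -0.80, and over protein-coding genes -0.32. These are descriptions across genes of the same 2 libraries, which are not independent replicates.

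Each of the 32 genes was also set against protein-coding genes of its own abundance, in 10 equal bins of mean FPKM. The ratio lay within the middle 50% of its bin for 15 genes, below it for 11 and above it for 6. Those below were ALDOA, TPI1, GAPDH, PGAM1, ENO1, PKM, LDHB, PDHB, PGM1, PFKL and DLAT. Of these, TPI1, PDHB and LDHB (-1.85, -1.85 and -1.88) lay close to the lower bound of their bin, -1.82, as did PGM1 (-1.31) to its own, -1.30. Those above were SLC2A1, SLC2A3, HK2, ALDOC, ENO2 and PDK1. ENO2, with a log2 ratio of 1.87, exceeded 97.0% of protein-coding genes at the minimum, and the middle 50% of its bin ran from -0.88 to 0.33.

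In bins of transcript length, 10 of equal size over all genes at the minimum with a known length, the median log2 ratio ran from -0.77 (median 1309 nt) to 0.23 (median 7823 nt). Of the 32 genes, 20 lay below and 12 above the median of their bin. The long transcripts of GPI (4268 nt), PGK1 (4887 nt) and DLAT (4458 nt) were among those below it. Taking out the bin medians left 1 gene higher and the same 14 lower. ENO2 then had a log2 ratio of 1.93, GAPDH -1.77 and PGAM1 -1.95. The cause of the dependence on length and abundance was not tested.

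**Figure D4:**
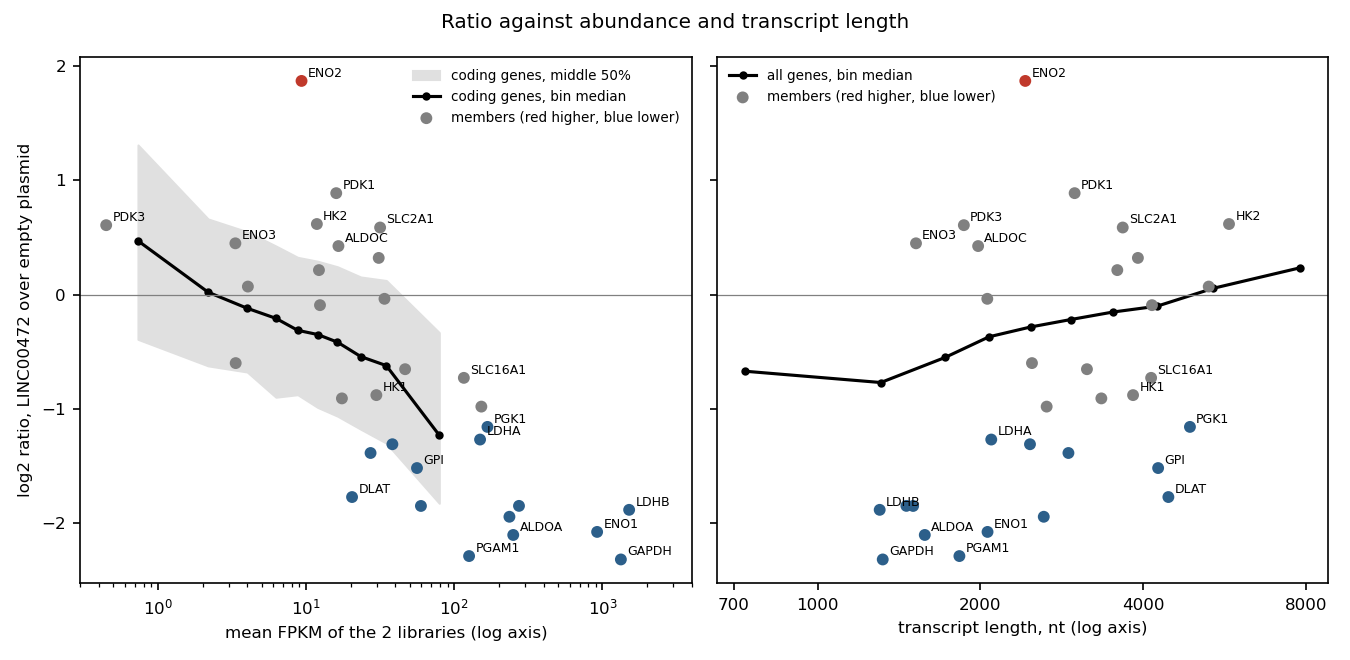
Log2 ratio of the 32 genes (points) against mean FPKM (left) and transcript length (right), both on log axes. Lines join the medians of 10 equal bins of protein-coding genes (left, with the middle 50% shaded) or of all genes at the minimum (right), and the genes above 100 FPKM lie between -2.32 and -0.73.

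Further genes of glycolysis and pyruvate handling, outside the set, were called about as often as protein-coding genes in general. Of 49 listed, 31 were at the minimum, of which 8 (25.8%) were lower and 4 (12.9%) higher, against 26.2% and 11.4% of protein-coding genes (median log2 ratio -0.43). The lower ones included PGAM4 and MPC2, a subunit of the mitochondrial pyruvate carrier (355 against 3040 counts, 4.02-fold). The higher ones included, from few reads, PFKFB1 and the D-lactate dehydrogenase LDHD (77 against 37 counts, 4.37-fold). The other higher ones were SLC2A12, a glucose transporter (250 against 156 counts, 3.40-fold), and the kinase PDK4 (113 against 104 counts, 2.304-fold). Upper quartile scaling gave 2 lower and 7 higher, against 14.2% and 25.1% of all genes. Adjustment for length gave 5 lower and 4 higher, against 21.7% and 15.5%.

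The neighbouring pathways of carbon metabolism were shifted in the same direction as the trunk of glycolysis. Of 17 genes of the tricarboxylic acid cycle, 12 (70.6%) were lower and 0 higher, against 23.8% and 16.3% of all genes (median -1.22), with MDH2 3.75-fold, SDHD 3.31-fold, SDHB 3.27-fold and OGDH 2.94-fold lower. Of 9 pentose phosphate genes at the minimum, 6 (66.7%) were lower and 1 higher (median -1.49), with TALDO1 5.56-fold, TKT 4.60-fold, PGLS 4.05-fold and PGD 3.69-fold lower. The higher gene was RBKS, a ribokinase, from 54 against 44 counts (2.59-fold). Upper quartile scaling gave 7 cycle genes lower and 0 higher, and 5 pentose phosphate genes lower and 2 higher, against 14.2% and 25.1% of all genes. Adjustment for length gave 8 cycle genes and 5 pentose phosphate genes lower, against 21.7% of all genes. Neither list was set against genes of its own abundance, and lower calls were more frequent among abundant genes. In the highest bins of mean FPKM (8, 9 and 10), 31.6%, 36.0% and 58.0% of protein-coding genes were lower.

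Of 22 hypoxia-responsive genes outside the set, 3 were higher and 0 lower (median log2 ratio 0.37). The share called higher, 13.6%, was near that of all genes, 16.3%, and of protein-coding genes, 11.4%. The share called lower, 0%, was not, against 23.8% of all genes and 26.2% of protein-coding genes. The median log2 ratios of these were -0.19 and -0.31. Of the 22 genes 14 had a ratio above equality and 8 below it, among them NDRG1 (-0.71) and BNIP3 (-0.68), which were named after their values were seen. The higher ones were CA9, a carbonic anhydrase (85 against 12 counts, 14.3-fold, log2 interval 3.03 to 4.92), the matrix enzyme LOX (2.80-fold) and ANKRD37 (2.47-fold). Upper quartile scaling gave 7 higher and 0 lower, against 25.1% and 14.2% of all genes. Of 8 genes for the hypoxia factors and their regulators, 3 were lower (37.5%), against 23.8% of all genes and 26.2% of protein-coding genes. They were EPAS1 (2.15-fold), EGLN2 (2.77-fold) and EGLN3 (3.14-fold), and HIF1A had 58.9 against 87.3 FPKM (log2 ratio -0.75). EPAS1 did not meet the rule with total counts or upper quartile factors. Among glycolytic genes that are also textbook HIF targets, PGK1 and LDHA were lower. SLC2A1, HK2 and PDK1 had log2 ratios of 0.59, 0.62 and 0.89 that did not meet the rule. These genes are examples. HIF targets were not counted over the whole set, so the balance between the examples says nothing about it.

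**Figure D5:**
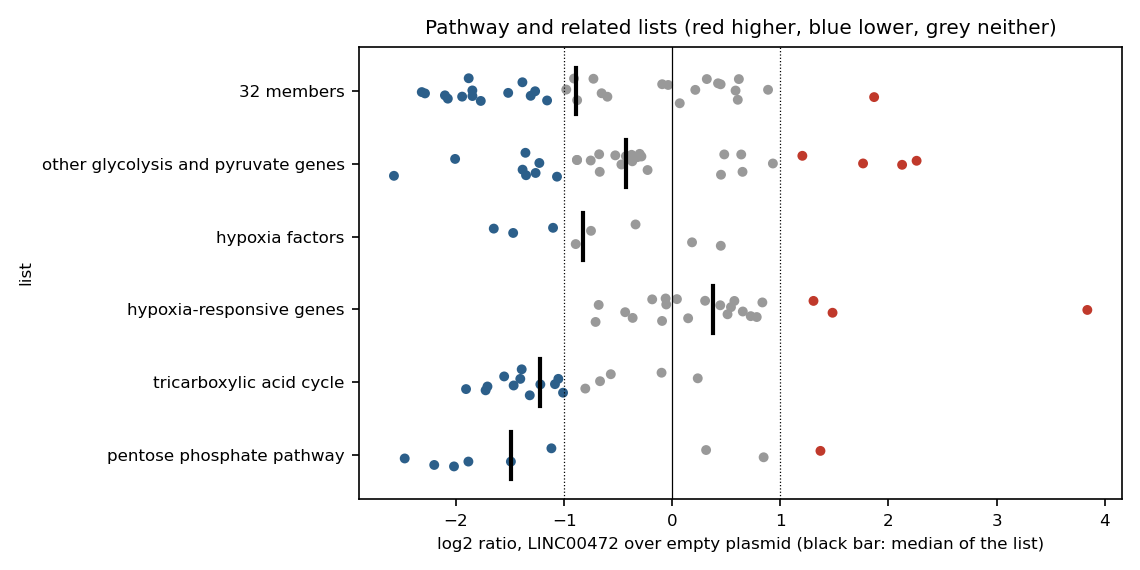
Log2 ratio of each gene at the minimum (points, scattered vertically for legibility) in the set and in 5 related lists, with black bars at the median. The tricarboxylic acid cycle (-1.22) and pentose phosphate (-1.49) medians lie left of that of the set (-0.89), and the median of hypoxia-responsive genes (0.37) lies right of 0.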

How the data were processed

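Total RNA of 1 culture per group was sequenced, and the titles of the samples gave the groups. The authors deposited raw read counts (whole numbers) and FPKM for every gene. A joint table and the single-library tables held identical counts for 27685 of 27685 genes. The genome build was hg19 per the submitters' processing notes, which also list StringTie 1.3.4b, HISAT2 2.1.0, bcl2fastq 2.20.0 and Trimmomatic but give no roles. How reads were counted and whether strand was used is not given in the sources used here, so overlapping, antisense and near-identical genes cannot be separated.

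TMM factors from edgeR 4.0.16 (R 4.3.3) over all genes were 1.11 (LINC00472) and 0.905 (control). Log2 ratios had a prior count of 0.5, in proportion to library size, and 95% intervals came from the exact binomial (Clopper-Pearson) limits on a gene's counts in one library given its sum over both. These cover counting error only, since PCR reads are not independent molecules. The lowest count of a member was 128, and the precision is highest for the most abundant enzymes. The size rule was a mean of at least 1 CPM, at least 2-fold, and an interval excluding equality. Every member is described, and from related lists up to 4 called genes with the largest absolute ratio are named. BSG, TPI1P2, HIF1A, SLC2A12, PDK4, PDHX, DLD and the markers fall outside that rule and were named after their values were seen.

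Transcript length was the median of matched GENCODE 29 transcripts (97.2% of genes at the minimum, all 32 members). Promoters were matched by gene ID, and their GRCh38 coordinates were not used with the hg19 data. The members and lists were chosen with earlier results of these data known. The ratio, interval and size rule were tested on simulated counts. These held counting error, as many genes changed up as down, and no trend with length or abundance. That test therefore does not cover the wide differences and trends of the real pair. Alternatives were total counts, upper quartile factors, FPKM with 0.5 added, size factors from DESeq2 1.42.0, a prior count of 5, minimums of 0.1 and 5 CPM, totals without the 100 most abundant genes, and ratios adjusted for length in 10 bins. Comparison with protein-coding genes alone was added after seeing the data. The remaining steps used scipy 1.17.1, pandas 2.3.3, numpy 2.4.6 and matplotlib 3.10.9 in Python 3.11.15.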

Additional observations from a re-analysis of the deposited data

How the results depend on the processing

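Across the alternatives for scaling, prior count, unit, minimum and length, no called gene of the set changed direction. ENO2 was higher in each of them, and 10 of the 14 lower genes were lower in each. Members higher numbered 2 with total counts, 3 with upper quartile factors, 2 without the 100 most abundant genes and 2 with FPKM, against 1. The median log2 ratio of members was then -0.61, -0.51, -0.55 and -0.69, against -0.89. The lower calls on PGM1, PFKL, PGK1 and LDHA were lost under 1 or more of these scalings or FPKM, and PDK1 and HK2 were added as higher. Among all genes, 3531 were higher and 1993 lower with upper quartile factors, and 3510 higher and 2142 lower without the 100 most abundant genes, against 2288 and 3341. Higher genes numbered 3576 at a minimum of 0.1 CPM and 1347 at 5 CPM, where more or fewer genes were considered. Of 15 balances within families, 14 kept a value inside the counting interval with FPKM, and PDK2 over PDK1 moved to 0.497. The share of counts in members was 0.444% and 0.781% (LINC00472 and control) without the 100 most abundant genes, 3 of them members, and 0.639% and 1.76% of summed FPKM. DESeq2 size factors and a prior count of 5 left every member within its interval. No paired analysis was possible because each group holds 1 library, and for the same reason no library could be left out. Depth limits PDK3, PDK2 and ENO3 most.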
